A study of Mus musculus with 2 samples.

Results

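The promoter sites of long noncoding RNA (lncRNA) genes that were open in adult mouse hippocampus numbered 920 of the 49472 autosomal peaks shared by both samples of the series (50780 shared peaks with the other chromosomes). A shared peak was the stretch covered by a peak of both samples by at least 1 bp. A site was kept when it lay within 500 bp of a transcript start of a GENCODE M21 gene typed lincRNA, antisense, processed_transcript or bidirectional_promoter_lncRNA, and over 2500 bp from every start of a protein-coding transcript. The rule used position only and no measured height. The assay, DNase-seq, reads open chromatin from the places where the nuclease DNase I cuts the DNA of isolated nuclei, mostly between or without nucleosomes. The tissue, labelled a layer of hippocampus, came from male mice, 2 months of age, of the strain B6CASTF1/J (offspring of a B6 by CAST cross) with no treatment named in the labels. The 1 group held biological replicates 1 and 2, which are separate biosamples under a common donor entry. Whether they were separate animals is not said, so the spread between them may be technical. There was no second group, so each value is a description and no test was made.

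LncRNAs are transcripts with no long reading frame, and many are made by RNA polymerase II from promoters with the same core machinery as protein-coding genes. Some act as RNA, such as the nuclear scaffolds, some host small RNAs in their introns or exons, and for others the act of transcription near a neighbouring gene is the known function. Nucleosomes are displaced at an active promoter, and promoters dense in CpG dinucleotides are commonly open in many cell types, whereas CpG-poor ones are more often open in few. An open site in bulk tissue gives neither the strand nor the amount of transcription, and a site open in fewer cells cannot be told apart from one that is less open in each cell. The 2 parental alleles are not separated in the files, so each height is a sum over both.

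The authors deposited 2 peak lists and 1 list of footprints (short stretches protected from cutting inside open chromatin) per sample. The longer lists held 132685 peaks in replicate 1 and 59880 in replicate 2, and the footprint lists held 255536 and 111355. The height of a peak is the authors' signal value, with a scaling not given in the sources used here. All heights below 500 steps were whole multiples, within 0.02 steps, of a step of 0.00535 in replicate 1 and 0.0108 in replicate 2. With the sequencing depth likewise unknown, differences in height between the replicates are given as values only. Promoters of marker genes were open for 7 of 8 neuron genes and 6 of 8 genes of hippocampal excitatory neurons (not Prox1 and Slc17a7). They were open for 5 of 8 astrocyte, 5 of 8 oligodendrocyte, 2 of 8 interneuron, 1 of 8 microglia and 1 of 8 endothelium genes, and for 0 of 8 liver and 0 of 8 muscle genes.

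A few of the sites are printed here in the direction of transcription of their lncRNA gene, from the GRCm38 reference (the same assembly as mm10). Capitals mark bases inside a footprint of replicate 1. The first 3 were the highest sites not near a RefSeq protein-coding start, and the protected bases of replicate 1 were arranged differently in them. At Gm42418 replicate 2 had 0 footprints, and its height may not belong to this locus alone, as described below.
Gm42418, mm10 chr17:39846781-39846900, plus strand: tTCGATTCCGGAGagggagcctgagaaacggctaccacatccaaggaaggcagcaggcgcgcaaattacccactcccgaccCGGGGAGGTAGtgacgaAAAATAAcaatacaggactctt
Gm15408, mm10 chr5:149006821-149006980, plus strand: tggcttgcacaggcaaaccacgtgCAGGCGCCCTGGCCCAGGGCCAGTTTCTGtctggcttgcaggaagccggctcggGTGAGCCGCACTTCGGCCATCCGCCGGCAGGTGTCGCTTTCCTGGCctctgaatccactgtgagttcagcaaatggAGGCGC
9430037G07Rik, mm10 chr9:88599501-88599780, minus strand: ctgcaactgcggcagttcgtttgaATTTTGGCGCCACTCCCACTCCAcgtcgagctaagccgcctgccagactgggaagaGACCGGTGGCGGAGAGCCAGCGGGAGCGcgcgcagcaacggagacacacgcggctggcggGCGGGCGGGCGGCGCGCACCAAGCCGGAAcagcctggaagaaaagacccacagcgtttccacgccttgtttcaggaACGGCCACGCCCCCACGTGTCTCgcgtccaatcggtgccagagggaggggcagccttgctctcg
The next pair were the highest sites with a match to the motif of CTCF, a protein that binds insulators and loop anchors, and to that of NRF1, a factor of CpG-rich promoters. In Gm32834 the CTCF match CCACGAGAGGGC began at base 90 and lay in a footprint of both replicates. In AC158605.1 the NRF1 match filled bases 85 to 94 and lay in a footprint of both replicates, and the CRE match TGACGTCA at bases 64 to 71 lay in a footprint of replicate 1 only.
Gm32834, mm10 chr13:51418681-51418840, minus strand: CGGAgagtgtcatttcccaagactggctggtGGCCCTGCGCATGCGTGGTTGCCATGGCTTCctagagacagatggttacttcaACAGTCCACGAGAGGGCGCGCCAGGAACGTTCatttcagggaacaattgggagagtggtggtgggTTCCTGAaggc
AC158605.1, mm10 chr10:82178601-82178720, plus strand: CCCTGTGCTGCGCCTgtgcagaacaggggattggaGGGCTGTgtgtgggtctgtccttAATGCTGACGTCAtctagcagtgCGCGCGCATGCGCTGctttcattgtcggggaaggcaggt
The last pair were the highest site that was not CpG-rich, which lies over a tRNA gene, and the highest site of the list of neural lncRNAs. In AC154766.4 footprints of replicate 1 covered 141 of 220 bases, whereas in C130071C03Rik they covered 7 of 280. This contrast was not one of both replicates. AC154766.4 held 4 footprints in replicate 1 and 3 in replicate 2, and C130071C03Rik held 1 and 4.
AC154766.4, mm10 chr17:23550241-23550460, plus strand: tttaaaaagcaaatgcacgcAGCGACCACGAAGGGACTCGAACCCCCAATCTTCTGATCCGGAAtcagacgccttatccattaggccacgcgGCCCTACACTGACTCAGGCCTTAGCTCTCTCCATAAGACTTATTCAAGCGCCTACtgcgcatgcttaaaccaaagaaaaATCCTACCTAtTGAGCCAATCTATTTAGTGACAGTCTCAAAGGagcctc
C130071C03Rik, mm10 chr13:83721061-83721340, plus strand: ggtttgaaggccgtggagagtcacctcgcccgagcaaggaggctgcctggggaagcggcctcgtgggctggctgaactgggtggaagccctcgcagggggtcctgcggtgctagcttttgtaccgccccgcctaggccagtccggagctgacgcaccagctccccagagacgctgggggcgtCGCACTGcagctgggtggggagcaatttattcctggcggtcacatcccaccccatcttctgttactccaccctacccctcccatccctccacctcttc

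A minority of lncRNA genes with a start away from coding starts had an open promoter there. Of the 7107 autosomal lncRNA genes with a start over 2500 bp from every coding start, called eligible here, 759 (10.7%, exact 95% binomial interval 9.97 to 11.4) had a site, and 12064 of 20722 autosomal protein-coding genes (58.2%) had a shared peak within 500 bp of a start. This and the other intervals cover counting error only. The coding share counted any start and any shared peak, and the number of starts per gene was not matched between the 2 shares. A further 585 eligible genes had a peak in replicate 1 only, 56 in replicate 2 only, 28 in both at places that did not overlap, and 5679 in neither. Replicate 1, with the longer list, thus held most of the peaks found once. These counts leave out peaks within 2500 bp of a coding start, so a gene with no peak here or below may have one there. With replicate 1 alone 1803 sites and 19.3% of eligible genes would have been counted, and with replicate 2 alone 1020 sites and 11.8%. Among the 5679 genes the deposited false discovery rate files listed an interval near the start of 1.85% in replicate 1 and of 0.704% in replicate 2, so at most of them no interval below the listing limit of 0.05 was found. Counted over start positions, 12.3% of the 10163 eligible lncRNA starts had a site within 500 bp. Of all autosomal positions over 2500 bp from coding starts, 1.30% lay within 500 bp of a shared peak.

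The share differed by gene type. Of eligible processed_transcript genes, a class that holds many spliced and curated noncoding RNAs, 22.1% (107 of 485) had a site, against 10.4% of lincRNA genes (495 of 4755) and 8.40% of antisense genes (156 of 1857). Genes with more annotated starts also had a site more often, 20.5% of the 1601 genes with at least 2 starts and 7.83% of the 5506 genes with 1. The number of starts gives a gene more chances, and its part in the difference between gene types was not tested. In all 761 lncRNA genes had a site, 2 of them only through a start that was not eligible, and 165 had more than 1. Mir99ahg, the host of a microRNA cluster that includes miR-99a, had 7, and Lncpint, an RNA induced by p53, and Mir124a-1hg, a host of the neuronal microRNA miR-124, had 5 each. The next genes, with 4 each, were 3110039I08Rik, which is Mir100hg, A230103O09Rik, E130102H24Rik and Gm37494.

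The heights of the sites lay between those of coding promoters and those of other distal peaks. In replicate 1 the lowest of the 920 sites had a height of 0.182, the median 1.46 and the highest 53.9, and in replicate 2 these were 0.258, 1.10 and 79.2. The median was 2.66 in replicate 1 and 1.96 in replicate 2 over the 16750 shared peaks within 500 bp of a coding start, called coding promoter peaks, and 1.28 and 0.871 over the 26712 other shared peaks over 2500 bp from coding starts, called distal peaks. The 3 classes overlapped over nearly their whole range and differed in their middle. Above the 90th percentile of all autosomal shared peaks by height stood 7.93% of the sites in replicate 1 and 7.39% in replicate 2, against 23.7% and 25.7% of coding promoter peaks and 2.58% and 1.47% of distal peaks. The authors' shorter lists, the stricter ones, held 56.2% of the sites in both replicates, 78.2% of coding promoter peaks and 41.7% of distal peaks, with 54.5% over all autosomal shared peaks. The sites as a whole were thus near the average shared peak in height and in this share.

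**Figure D1:**
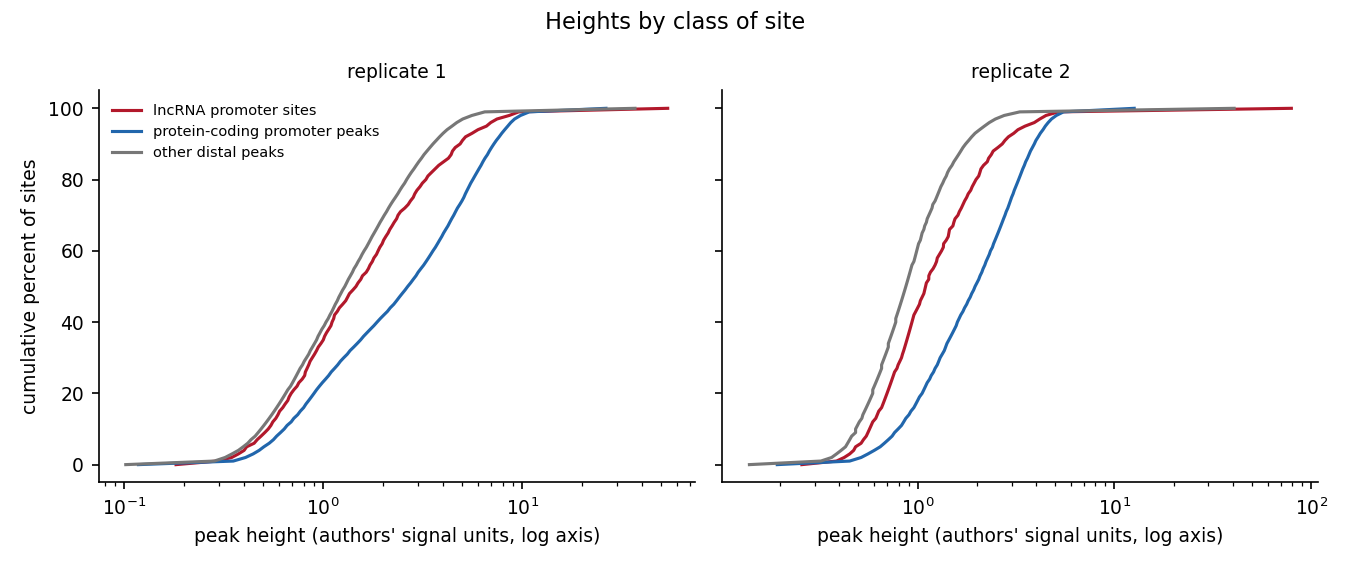
Cumulative percent of sites (vertical axis) at or below each peak height (horizontal log axis, authors' signal units) in each replicate, for lncRNA promoter sites, protein-coding promoter peaks and other distal peaks. The lncRNA curve runs between the other curves, with medians of 1.46 in replicate 1 and 1.10 in replicate 2.

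The 2 replicates ranked the sites alike. Pearson's r of log10 heights was 0.838 and Spearman's rho of heights 0.818 over the 920 sites, 0.875 and 0.884 over coding promoter peaks and 0.766 and 0.743 over distal peaks. The sites share 2 libraries and one choice of shared peaks, so these are descriptions. Replicate 1 was higher at 644 sites (70%), and at 71.5% of all autosomal shared peaks. The log2 ratio of replicate 2 over replicate 1 had a median of -0.39 at the sites, -0.46 at coding promoter peaks and -0.56 at distal peaks. The ratio was highest at Gm26751 (1.62, heights 1.77 in replicate 2 and 0.578 in replicate 1), Gm47039 (1.59) and Gm19719 (1.46). It was lowest at Gm33756 (-2.15, heights 0.667 in replicate 2 and 2.95 in replicate 1), Gm32850 (-2.11) and A730043L09Rik (-2.08). Gm33756 and A730043L09Rik held a CTCF match, and none of these 6 was among the 12 highest sites. No role of these 6 genes is given here.

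The highest site was that of the lincRNA gene Gm42418, with 53.9 in replicate 1 and 79.2 in replicate 2. It was also the highest autosomal shared peak of the series in both replicates, where the next peak reached 37.0 in replicate 1 and 40.5 in replicate 2. RefSeq places the site inside Rn18s-rs5, a pseudogene related to the 18S ribosomal RNA (chromosome 17, positions 39846354 to 39848202). Sequences near-identical to a multicopy gene share reads with its copies, so the height may not belong to this locus alone, which was not tested. Replicate 1 had 3 footprints in it and replicate 2 had 0. Without it the highest site stood at 13.8 in replicate 1 and 6.20 in replicate 2, and the medians of 1.46 and 1.10 were the same to these digits.

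The other 11 of the 12 highest sites were all higher in replicate 1. Gm15408 had 13.8 in replicate 1 and 6.08 in replicate 2, and Tmem250-ps had 12.7 and 5.94. 9430037G07Rik had 13.1 and 4.22, the widest gap of these 11. Gm12758 with Gm12762, whose starts share a site, had 11.8 and 5.38. These 4 sites differed from each other by less than the replicates differed at any one of them. Next came 1700096K18Rik (11.7 in replicate 1 and 4.51 in replicate 2), Gm11205 (9.79 and 6.20), Gm10433 (10.6 and 5.32) and 1810044D09Rik (9.41 and 5.45). The 12 ended with Gm31812 (9.69 and 4.68), 6720427I07Rik (8.80 and 5.20) and 1700028E10Rik with D730045B01Rik (9.03 and 4.92). All 12 were CpG-rich, as defined below, 10 were lincRNA genes, 11 were intergenic and 10 had their centre upstream of the start. Tmem250-ps is one of 36 sites within 2500 bp of a start that RefSeq gives to a curated messenger RNA, which GENCODE M21 did not type as coding. In M21 itself, 40 of the 920 sites lay within 500 bp of a start of a coding gene's transcript of another type. With every transcript of coding genes counted in the rule, 861 sites were left. The lowest 4 sites were Gm45159 (0.273 in replicate 1 and 0.377 in replicate 2), AC166748.2 (0.182 and 0.463), Snhg14 (0.193 and 0.333) and 1700110I01Rik with Gm17188 (0.209 and 0.258). All 4 were higher in replicate 2 and none was CpG-rich.

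**Figure D2:**
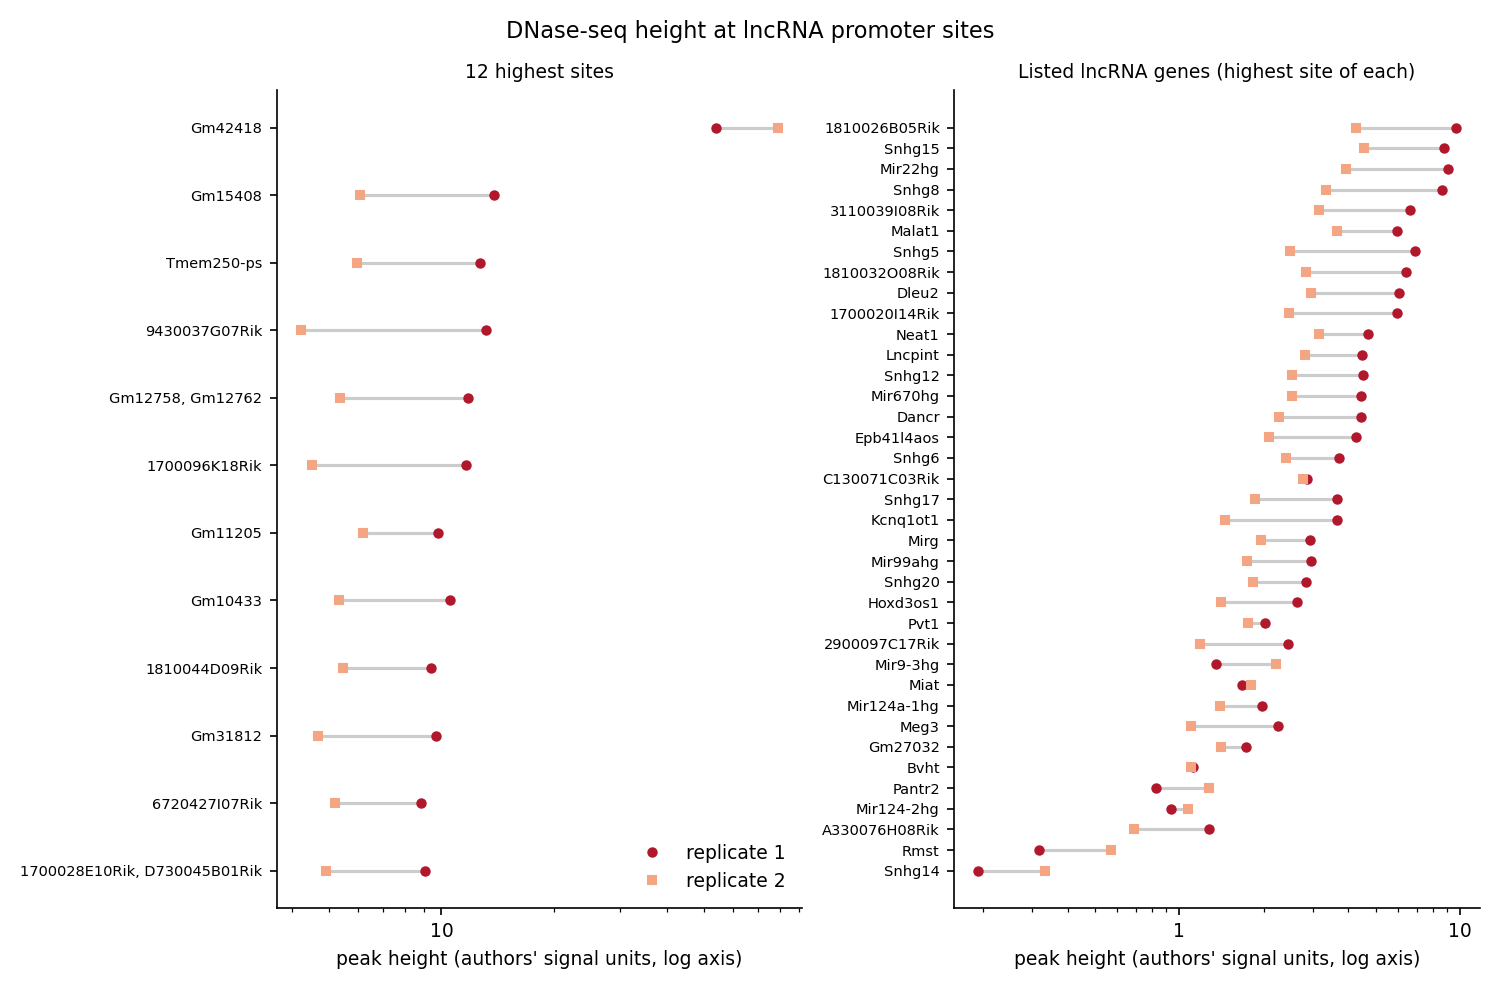
Peak height (horizontal log axes, authors' signal units) in replicate 1 (circles) and replicate 2 (squares) at the 12 highest lncRNA promoter sites (left) and at the highest site of each of the 37 listed lncRNA genes with one (right). Gm42418 stands alone with 53.9 in replicate 1 and 79.2 in replicate 2, and the listed genes run down to Snhg14 with 0.193 and 0.333.

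Some of the highest sites lay over tRNA genes, which RNA polymerase III transcribes from elements inside the gene. RefSeq has a tRNA gene under 13 of the 920 sites (1.41%), and under 181 of all 49472 autosomal shared peaks (0.366%). The 13 sites had median heights of 4.65 in replicate 1 and 3.82 in replicate 2, against 1.43 and 1.09 for the other 907. Of the 13, 6 were CpG-rich. They included Gm11205 (rank 7), AC154766.4 (rank 13, with 8.54 in replicate 1 and 5.38 in replicate 2), B230208H11Rik (rank 15, with 8.64 and 4.78) and Gm45605 (rank 20, with 7.17 and 5.66). The lowest was the site of 4930477E14Rik with Gm26654, with 0.540 and 0.688. Whether the openness at these 13 belongs to the lncRNA gene or the tRNA gene cannot be told apart. A site can also serve other small RNA genes, and 7 sites (0.761%) lay within 500 bp of a snoRNA start and 12 (1.30%) of a miRNA start, against 0.0849% and 0.495% of all autosomal shared peaks.

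CpG content varied broadly over the sites. A site was called CpG-rich when the 300 bp around its centre had over 50% GC and a ratio of observed to expected CpG over 0.6. This held for 293 sites (31.8%, interval 28.8 to 35.0), for 79.2% of coding promoter peaks and for 5.99% of distal peaks. It was 34.6% over all autosomal shared peaks, which lay within the interval at the sites. In peaks of replicate 1 alone, chosen by the same rule, it was 18.9%, and in those of replicate 2 alone 29.0%. The median GC share was 55.0% at the sites, 65.3% at coding promoter peaks and 50.7% at distal peaks, and the median CpG ratio was 0.477, 0.807 and 0.278. The CpG-rich sites had median heights of 2.34 in replicate 1 and 1.80 in replicate 2, and the other sites 1.15 and 0.936. Of the 100 highest sites 79 were CpG-rich, and of the 100 lowest 12. Within CpG-rich windows coding promoter peaks were still higher, with medians of 3.25 and 2.25, and within the other windows the sites, with 1.15 and 0.936, lay below coding promoter peaks with 1.27 and 1.17. Distal peaks that were not CpG-rich had 1.26 in replicate 1, above the sites, and 0.850 in replicate 2, below them. By gene type, 47.3% of processed_transcript sites (70 of 148), 32.6% of antisense sites (61 of 187) and 27.7% of lincRNA sites (162 of 584) were CpG-rich. The single bidirectional_promoter_lncRNA site, Gm20501, was not.

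**Figure D3:**
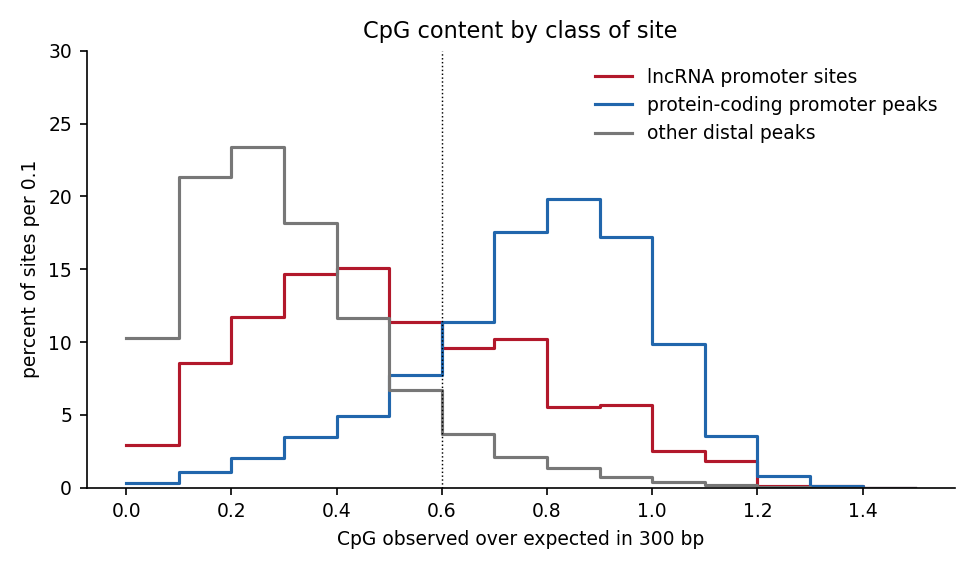
Percent of sites (vertical axis) per 0.1 of the ratio of observed to expected CpG in 300 bp around the centre (horizontal axis), for lncRNA promoter sites, protein-coding promoter peaks and other distal peaks, with the limit of 0.6 dotted. The lncRNA distribution is broad, with a median of 0.477 between 0.807 and 0.278.

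Repeats filled little of the windows. Repeat-masked sequence made up a mean of 7.90% of the 300 bp at the sites, 5.56% at coding promoter peaks and 9.11% at distal peaks. It was over 50% of the window at 9 sites (0.978%), with 0.964% over all autosomal shared peaks.

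The sites were looser around their starts than coding promoter peaks. The centre lay upstream of the nearest start at 57.6% of the sites and at 57.8% of coding promoter peaks, so the direction was alike. It lay within 100 bp of the start at 40% of the sites and at 57.3% of coding promoter peaks, with median distances of 141 and 75.5 bp. The distance was to the nearest of all annotated starts, whose number per gene was not matched between the classes. Footprints were counted only inside the peaks, so their profile around the start follows that of the peaks in part by construction. Their shares are of the footprints within 600 bp of the start. In replicate 1 the 50 bp just upstream of the start held 13.6% at the sites and 19.3% at coding promoter peaks. In replicate 2 these were 13.4% and 20.1%. The start lay inside 334 sites, whose median heights were 1.91 in replicate 1 and 1.34 in replicate 2 and of which 44.3% were CpG-rich. At the 586 sites with the start outside, the medians were 1.15 and 0.974 and 24.7% were CpG-rich. At the edge of the rule, the outermost 50 sites within 500 bp had medians of 0.968 and 0.936, and the nearest 50 shared peaks beyond it, otherwise eligible, had 1.02 and 0.984.

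**Figure D4:**
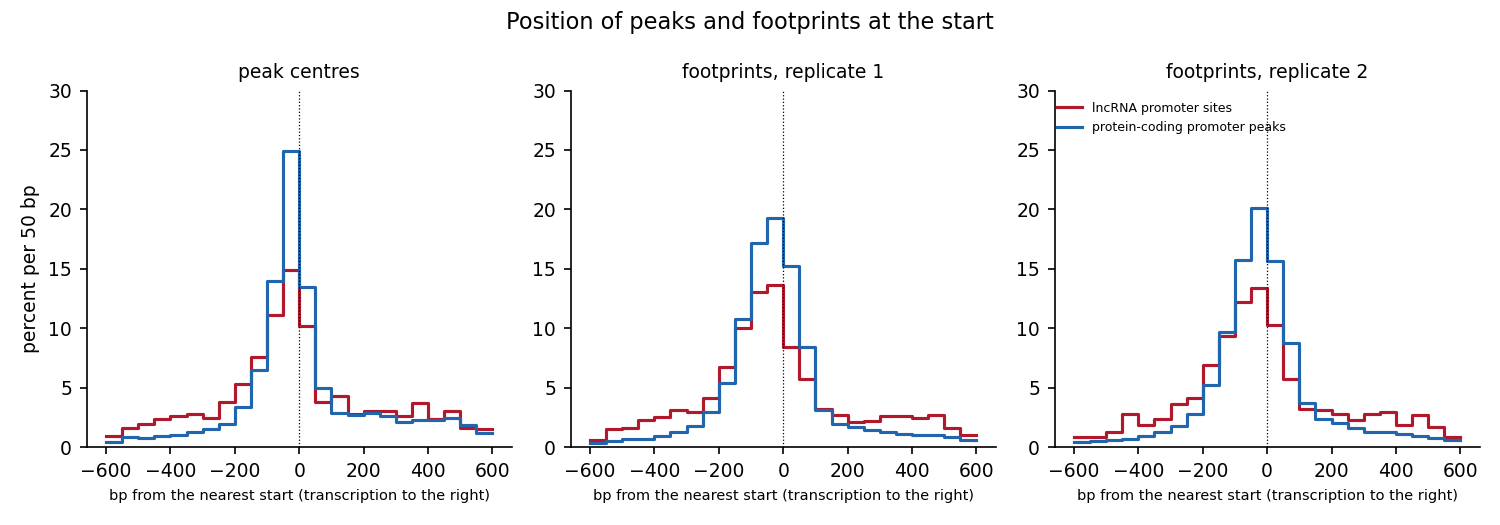
Percent of peak centres (left) and of footprints in replicate 1 (middle) and replicate 2 (right) per 50 bp (vertical axes) by distance from the nearest start (horizontal axis, bp, transcription to the right), for lncRNA promoter sites and protein-coding promoter peaks. Footprints are those inside the peaks and within 600 bp of the start. Both classes peak just upstream of the start, where the lncRNA curve reaches 14.9% of centres and the coding curve 24.9%.

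Position relative to coding genes is set in part by the rule, which takes only sites over 2500 bp from coding starts and mostly lincRNA genes, intergenic by their type. Of the 920, 742 (80.7%) were intergenic with respect to protein-coding gene bodies, against 54.2% of distal peaks, 156 lay in a coding gene on the other strand and 22 in one on the same strand. The median distance to the nearest coding start was 38299 bp at the sites and 37386 bp at distal peaks, and 394 sites (42.8%) and 42.2% of distal peaks were over 50000 bp away. Height and CpG content were lower at larger distances. The 165 sites at 2500 to 10000 bp had median heights of 1.95 in replicate 1 and 1.34 in replicate 2 with 41.8% CpG-rich, and the 361 sites at 10000 to 50000 bp had 1.67 and 1.27 with 36.6%. The 149 sites at 50000 to 100000 bp had 1.35 and 1.02 with 34.9%, and the 245 sites over 100000 bp had 1.01 and 0.904 with 16.3%. The same order held in both replicates. At this edge of the rule, the 50 sites nearest to a coding start had medians of 1.86 and 1.39, and the 50 peaks at lncRNA starts just within 2500 bp of one had 1.35 and 1.17. LncRNA starts on both strands flanked 40 sites, which had median heights of 2.36 in replicate 1 and 1.52 in replicate 2, against 1.43 and 1.09 at the 880 with starts on 1 strand. Of the 40, 50% were CpG-rich.

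Footprints were about as common in the sites as in shared peaks in general. At least 1 footprint had its centre in 80.3% of the sites in replicate 1 and 70.5% in replicate 2, with 79.6% and 69.5% over all autosomal shared peaks. No footprint in either replicate was found in 12.7% of the sites and 13.8% of all. The count followed height: in replicate 1, 53.6% of the sites in the lowest of 4 equal height classes of all shared peaks had a footprint, and 99.0% of those in the highest class, as did 53.7% and 98.5% of all autosomal shared peaks in these classes. The most footprints in both replicates together were in Gm40513 (9 in replicate 1 and 8 in replicate 2), 1810026B05Rik (7 and 8), Gm26691 (9 and 6) and, with equal totals, Zswim6 (7 and 7) and 6530403H02Rik (11 and 3). Zswim6 is a protein-coding gene by its RefSeq start, which M21 types processed_transcript. Gm40513 and Gm26691 had heights under 2 in both replicates but were 820 and 480 bp wide, against a median width of 167 bp over all sites.

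For 13 of 16 motifs searched, the share of sites with a match lay between those of coding promoter peaks and of distal peaks, the exceptions being RFX, NFI and the TATA box. Each motif was searched on both strands in the 300 bp around the centre as exact letters, where N is any base, and no motif contains another. The letters of motifs of promoters were GGGCGGGG for the SP and KLF zinc fingers, CCGGAAG for ETS factors, CCAATCA for NFY, TGACGTCA for CREB and ATF (CRE), AAGATGGCG for YY1, GCGTGGGCG for EGR and TATAAAAG for the TATA box. The other letters were CAGATGG for NEUROD factors of excitatory neurons, TGANTCA for AP-1 and CACGTG for an E-box. The longer motifs of CTCF, NRF1, ZNF143, MEF2, NFI and RFX are given by name only. A match is only a run of letters and an absent match says only that these letters were not in the window.

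The SP and KLF, ETS, NRF1, YY1, ZNF143 and EGR letters were less frequent in the sites than in coding promoter peaks. The SP and KLF letters were in 11.8% of the sites, 30.4% of coding promoter peaks and 2.94% of distal peaks (13.2% over all autosomal shared peaks), and the ETS letters in 6.30%, 15.0% and 2.26% (6.8% over all). The interval for ETS at the sites, 4.82 to 8.07, lay below coding promoter peaks and above distal peaks. For SP and KLF and for ETS, the share at the sites was within counting error of the share over all shared peaks. NRF1 matches were in 0.435% of the sites (0.762% over all), YY1 in 0.761% (1.28%), ZNF143 in 0.543% (0.728%) and EGR in 0.326% (0.681%), each below its share over all shared peaks but within counting error of it. In coding promoter peaks these were 1.82%, 3.05%, 1.87% and 1.39%, each above the interval at the sites. The NFY letters were in 7.72% of the sites (interval 6.08 to 9.64), 8.26% of coding promoter peaks and 3.4% of distal peaks (5.12% over all), so these letters did not differ from coding promoters beyond counting error. The CRE was in 2.17% (interval 1.33 to 3.34), 3.0% and 0.434% (1.4% over all), which likewise did not. Within CpG-rich windows the CRE was in 5.12% of the sites, 3.36% of coding promoter peaks and 1.56% of distal peaks. The share at the sites rests on few sites, as 20 of all 920 held a CRE match. Shares of the other letters of this paragraph within CpG-rich windows are not given here.

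Motifs of distal elements were more frequent in the sites than in coding promoter peaks. The CTCF letters were in 9.46% of the sites (interval 7.64 to 11.5), 3.84% of coding promoter peaks and 16.8% of distal peaks (11.5% over all), and the NEUROD letters in 11.6%, 3.87% and 20.3% (13.4% over all). The AP-1 letters were in 8.80%, 3.56% and 11.5% (8.27% over all). For CTCF, NEUROD and AP-1 alike, the share at the sites was within counting error of the share over all shared peaks. CpG content moves with these shares. Within windows that were not CpG-rich, the CTCF letters were in 11.2% of the sites, 5.90% of coding promoter peaks and 17.3% of distal peaks, and the NEUROD letters in 14.4%, 7.80% and 21.2%. The RFX letters were in 1.20% of the sites (interval 0.598 to 2.13), 0.340% of coding promoter peaks and 0.547% of distal peaks (0.471% over all), a difference that rests on few sites. At sites kept with 50% reciprocal overlap of the peaks the RFX share was 0.517%, below the 0.547% of distal peaks. It was 1.36% with the shorter lists, 0.887% with replicate 1 alone and 0.784% with replicate 2 alone. The CACGTG E-box was in 8.26% of the sites (7.28% over all) and MEF2 in 0.435% (0.408%). The TATA box was in 0.870% of the sites (interval 0.376 to 1.71), 0.519% of coding promoter peaks and 0.760% of distal peaks (0.655% over all). NFI was in 0.109% of the sites, from 1 site, 0.0239% of coding promoter peaks and 0.0936% of distal peaks (0.0687% over all). None of these 4 differed from the share over all shared peaks beyond counting error.

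**Figure D5:**
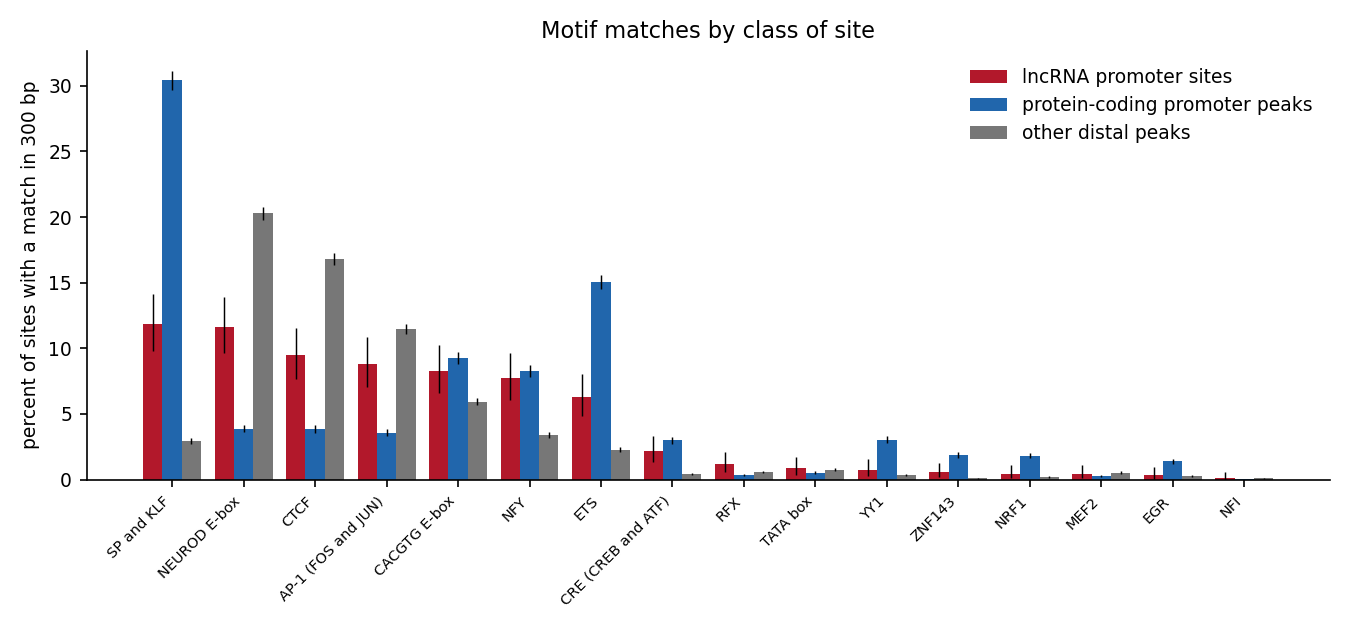
Percent of sites with a match to each of 16 motifs in 300 bp (vertical axis), for lncRNA promoter sites, protein-coding promoter peaks and other distal peaks, in this order within each group of bars; error bars are exact 95% binomial intervals for counting error. The lncRNA bar lies between the other bars for SP and KLF (11.8%, 30.4% and 2.94%) and for CTCF (9.46%, 3.84% and 16.8%).

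CTCF matches were protected in most cases. Of 80 CTCF matches inside the sites, 69 (86.3%) overlapped a footprint of replicate 1 and 53 (66.3%) one of replicate 2. The shares were 63.8% and 50% in coding promoter peaks and 94.8% and 75.3% in distal peaks, so the sites stood between them. Of all bases in the sites, 17.7% lay in footprints of replicate 1 and 9.92% in those of replicate 2. Here and at the printed sites, a match counted as in a footprint when at least 1 of its bases lay in one. The shares of matches and of single bases are thus not on the same scale. Of 15 CRE matches, 14 (93.3%) overlapped a footprint of replicate 1 and 9 (60%) one of replicate 2, against 92.1% and 79.0% in coding promoter peaks and 70.1% and 36.8% in distal peaks. Of 76 NEUROD matches, 37 (48.7%) and 21 (27.6%) did, against 38.4% and 28.7% in coding promoter peaks and 61.8% and 33.0% in distal peaks. Of 53 NFY matches, 21 (39.6%) and 7 (13.2%) did, against 34.2% and 21.2% in coding promoter peaks and 21.7% and 8.68% in distal peaks. The shares were 30% and 8.33% for the 60 AP-1 matches, 29.6% and 16.7% for the 54 ETS matches and 29.8% and 17.5% for the 57 CACGTG matches in the sites. The footprint of Gm32834 printed above is one of the CTCF cases in both replicates.

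Named lncRNA genes had sites more often than the 10.7% of eligible genes, and their number of annotated starts moved with this. Across 6 lists 69 genes were eligible, and 37 of them (53.6%) had a site. The 69 had a median of 4 starts against 1 over all eligible genes. Of the 16 list genes with 1 start, 2 had a site, and of the 53 with at least 2, 35 had one. Over all eligible genes these shares were 7.83% with 1 start and 20.5% with at least 2. The count at 1 start rests on few list genes and does not settle whether they exceeded their share. The part of the number of starts was not tested. The lists were written with results of these data known. Medians of the lists below take only the highest site of each gene, so they are not on the same measure as medians over all sites.

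Hosts of snoRNAs, which carry these guides of RNA modification in their introns, had a site at 11 of 13 eligible genes, with median heights of 4.52 in replicate 1 and 2.47 in replicate 2. Snhg15 had 8.77 in replicate 1 and 4.54 in replicate 2, Snhg8 had 8.58 and 3.33, and Snhg5 had 6.90 and 2.47. The highest of the list was 1810026B05Rik (9.65 and 4.26), known as Chaserr for its effect on the neighbouring gene Chd2 rather than as a host. Without it the list had 10 of 12 and medians of 4.40 and 2.43. These 4, the highest of the list, were higher in replicate 1, as were 70% of all sites. Gas5, a growth arrest RNA, and Rian, an imprinted host, had no peak near an eligible start in either replicate. The lowest, Snhg14, is a long imprinted transcript whose far end runs antisense to Ube3a in neurons, and it was among the 4 lowest sites of all and higher in replicate 2 (0.193 in replicate 1 and 0.333 in replicate 2).

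Hosts of microRNAs had a site at 11 of 16 eligible genes, with medians of 2.93 in replicate 1 and 2.21 in replicate 2. Mir22hg had 9.02 in replicate 1 and 3.93 in replicate 2, and 3110039I08Rik (Mir100hg) had 6.62 and 3.15. Dleu2, a host of miR-15a and miR-16, had 6.05 and 2.95, and Mir670hg had 4.45 and 2.53. These 4 were higher in replicate 1, whereas Mir9-3hg, a host of miR-9, had 1.35 in replicate 1 and 2.21 in replicate 2. Mir142hg, whose microRNA is known from blood cells, had a peak in replicate 1 only (0.620), as had 9130024F11Rik (0.310), and Mir17hg, host of an oncogenic cluster, had one in replicate 2 only (1.55). Carmn, a smooth muscle RNA, and Mir155hg, induced in immune cells, had none.

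The 7 sites of Mir99ahg show how sites of 1 gene differ. They ranked from 209 to 864 of the 920, with heights between 0.529 and 2.93 in replicate 1 and between 0.538 and 2.10 in replicate 2. The highest in replicate 1 (2.93, with 1.74 in replicate 2) was not the highest in replicate 2, where the site with 2.01 in replicate 1 reached 2.10. None of the 7 was CpG-rich. At Lncpint the highest of 5 sites had 4.47 in replicate 1 and 2.81 in replicate 2 and was CpG-rich. At Mir124a-1hg the 5 sites had between 0.786 and 1.97 in replicate 1 and between 0.796 and 1.40 in replicate 2.

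Widely expressed regulatory lncRNAs had a site at 8 of 12 eligible genes, with medians of 4.46 in replicate 1 and 2.37 in replicate 2. Malat1, an abundant RNA of nuclear speckles, had 5.97 in replicate 1 and 3.65 in replicate 2, and Neat1, the scaffold of paraspeckles, had 4.70 and 3.13 at a site shared with Frmd8os. 1700020I14Rik, known as Cyrano, which binds the microRNA miR-7, had 5.95 and 2.46. Malat1 was not CpG-rich by the definition used, with 45.3% GC. The p53-induced Trp53cor1 had a peak in replicate 1 only (0.663), and Crnde, Dnm3os and Gm26917 had none.

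Neural lncRNAs had a site at 6 of 16 eligible genes, with medians of 1.30 in replicate 1 and 1.34 in replicate 2. C130071C03Rik, a host of miR-9 near Mef2c, had 2.84 in replicate 1 and 2.76 in replicate 2, nearly equal. Mir124a-1hg had 1.97 and 1.40, and Miat, a nuclear RNA of neurons, had 1.67 and 1.80. Pantr2 had 0.824 and 1.28, and Rmst, an RNA of neuronal differentiation, had 0.316 and 0.570. Of the 6, 4 were higher in replicate 2, as were 276 of all 920 sites. Ptgs2os2 had a peak in replicate 2 only (0.409). Of the 9 with none, Dlx1as and Dlx6os1 lie at homeobox genes of interneuron development, and Gm38509 (Peril) is the third by name.

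Imprinted lncRNAs had a site at 5 of 9 eligible genes, with medians of 2.25 in replicate 1 and 1.10 in replicate 2. Kcnq1ot1, which silences its neighbours on the paternal chromosome, had 3.65 in replicate 1 and 1.45 in replicate 2. Mirg had 2.93 and 1.95, Meg3, expressed from the maternal chromosome, had 2.25 and 1.10, and A330076H08Rik had 1.27 and 0.688. These 4 were higher in replicate 1, as were 70% of all sites, and the fifth, Snhg14, was higher in replicate 2 (0.193 in replicate 1 and 0.333 in replicate 2). Airn, which silences Igf2r in cis, had peaks in both replicates that did not overlap (0.599 in replicate 1 and 0.742 in replicate 2), and B830012L14Rik had one in replicate 1 only (0.476). H19 and Rian had none.

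LncRNAs known from other tissues had a site at 2 of 14 eligible genes, close to the 10.7% over all eligible genes. These were Hoxd3os1, antisense in the HoxD cluster, with 2.63 in replicate 1 and 1.41 in replicate 2, and Bvht, named for its role in heart cell differentiation, with 1.12 and 1.10. Mir142hg had a peak in replicate 1 only and 11 had none, the first by name being Carmn, Fendrr and Gm26809.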

How the data were processed

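DNase-seq of 2 hippocampus samples was analysed from the deposited files on mm10, per the labels. Nothing read here names the aligner, the callers or the thresholds (not given in the sources used here). Per the file headers and notes, peaks were called per sample. The deposited peak height was used as a signal value, the highest over each site. The deposited false discovery rate was taken as a q-value of the interval, listed below 0.05. The deposited footprints hold the constant 0.01 where a p-value would stand and were used by position, counted where their centre lay in a site.

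The longer of the authors' 2 lists of each sample was used, and shared peaks were intersections of at least 1 bp, merged. Starts came from GENCODE M21, and sequence, tRNA genes and messenger RNA starts from RefSeq's GRCm38.p6, the same assembly as mm10. Python 3.11.15 with numpy 2.4.6, pandas 2.3.3, scipy 1.17.1, pysam 0.24.0 and matplotlib 3.10.9, and samtools 1.23.1, were used. The interval and motif steps were tested on simulated data and returned the known answers. Intervals are exact Clopper-Pearson at 95%.

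The members and lists were chosen with earlier results of these data known. Genes were named by a rule: the 12 highest and 4 lowest sites by mean height, 3 at each end of the replicate ratio, the 4 with most footprints or sites, and from each list up to 4 with a site and 3 with none in alphabetical order. A few others (the tRNA sites, Mir9-3hg, Rmst, Pantr2, Snhg14, Bvht, ties, the genes with 4 sites and the 7 sites of Mir99ahg) were named after their values were seen. The RefSeq checks, tRNA genes, repeats, motifs in footprints and the split by CpG content were also added after the data were seen. Printed sequences follow a rule but skip sites within 2500 bp of a RefSeq messenger RNA start and chromosome 18. X and Y are outside the rule.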

Additional observations from a re-analysis of the deposited data

How the results depend on the processing

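No paired analysis was possible because the series holds 1 group. The values given here are the number of sites (920), the share of eligible genes with a site (10.7%), the median over sites of the mean height (1.29), the median over sites of the log2 ratio, replicate 2 over replicate 1 (-0.39), the share in both shorter lists (56.2%), the mean over replicates of the share with a footprint (75.4%), and the CpG-rich (31.8%), CTCF (9.46%), upstream (57.6%) and intergenic (80.7%) shares, with 37 list genes. With the authors' shorter lists there were 515 sites, 6.59% of genes, height 2.02, log2 ratio -0.63, 85.4% with a footprint, 41.2% CpG-rich, 11.7% with CTCF and 62.7% upstream. With 50% reciprocal overlap there were 580 sites, 7.63% of genes, height 1.55, log2 ratio -0.55, 65.9% in the shorter lists, 87.9% with a footprint, 12.8% with CTCF and 61.2% upstream. With lists of equal length the values were 8.95% of genes, height 1.67, log2 ratio -0.60, 67.5% in the shorter lists, 82.6% with a footprint, 36.2% CpG-rich and 61.8% upstream. A start window of 200 bp gave 8.37% of genes, 61.0% in the shorter lists, 35.5% CpG-rich and 63.1% upstream, and one of 1000 bp gave 12.8% of genes and 28.8% CpG-rich. LincRNA genes alone gave 600 sites, 28.2% CpG-rich, 95% intergenic and 21 list genes, and leaving out processed_transcript genes gave 9.85% of genes and 23 list genes. A coding distance of 1000 bp gave 74.9% intergenic, counting every transcript of coding genes (an alternative chosen after seeing the data) 85.1%, and a 500 bp sequence window 27.6% CpG-rich. With 1 replicate alone, the sites numbered 1020 to 1803, the share of genes was 11.8% to 19.3%, the median height 0.808 to 0.968, the CpG-rich share 18.9% to 29.0%, the upstream share 52.1% to 58.5% and the intergenic share 77.3% to 80.1%. The lowest count and the highest CpG-rich share there were those of replicate 2 alone. The other 96 of these 142 values moved by less than their interval or spread, or for counts by less than 1.5 times, and no median ratio changed sign. The causes were not tested. The missing depth and scale, and the shorter lists of replicate 2, limit how firmly a gene without a site can be called closed.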
